A study of Mus musculus with 13 samples.

Results

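CaMKII is encoded by 4 genes, Camk2a, Camk2b, Camk2d and Camk2g, and their transcripts were measured in 13 mouse hearts. The genes were taken by symbol, 4 of the 53278 symbols in the count files, and all 4 passed the filter on low counts that left 15690 genes for testing. All hearts came from male wild-type C57Bl6 mice that had surgery at 12 weeks of age and were harvested at 17 weeks. The IR edit group (n = 4) had ischaemia and reperfusion (IR, a temporary block of blood flow followed by its return) and received a functional editing system directed at CaMKIIδ, the product of Camk2d. The IR virus group (n = 3) had IR and a control virus, the IR group (n = 3) had IR with nothing injected, and the Sham group (n = 3) had sham surgery with nothing injected. The labels do not number the mice, so if any samples shared a heart the p-values measure technical spread only. They give no dose, promoter, kind of virus or number of edited cells, and the RNA came from the whole heart, in which muscle, connective tissue, vessel and blood cells are mixed. The series title names ablation of CaMKIIδ oxidation by base editing as the purpose, and the question here is what the 4 kinase genes did at the level of RNA.

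CaMKII is a serine/threonine kinase that calcium-loaded calmodulin switches on. Its subunits, made from any of the 4 genes, assemble into a ring-like holoenzyme, and each has a catalytic domain, a regulatory segment that holds the catalytic domain shut, and an association domain. Once calmodulin has opened the segment, phosphorylation of a nearby threonine or oxidation of a pair of neighbouring residues can keep the kinase on after calcium falls. In heart muscle the δ gene is the main one and γ is also found, whereas α and β are best known from the brain; CaMKII phosphorylates calcium channels, phospholamban and other proteins of contraction.

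The oxidised pair in CaMKIIδ is known as methionines 281 and 282, and their codons are shown because oxidation is what the study set out to ablate. In the GENCODE M21 annotation of mm10 they lie in exon 11 of Camk2d, at chr3:126797723-126797728 on the plus strand. An exon of the same length, 84 bases, holds the matching codons in each of the other genes. The coding strand of that exon is printed below 5′ to 3′, and the capitals mark codons 281 and 282 of the transcripts numbered alike in these genes.
Camk2d, chr3:126797702-126797785, plus strand: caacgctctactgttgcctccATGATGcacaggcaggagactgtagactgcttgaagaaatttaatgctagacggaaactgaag
Camk2b, chr11:5988955-5989038, minus strand: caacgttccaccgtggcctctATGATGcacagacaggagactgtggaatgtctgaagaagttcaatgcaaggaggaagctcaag
Camk2g, chr14:20760397-20760480, minus strand: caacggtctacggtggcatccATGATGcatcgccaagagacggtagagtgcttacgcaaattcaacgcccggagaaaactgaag
The 6 site bases were the same in Camk2d, Camk2b and Camk2g. Over the whole exon Camk2b matched Camk2d at 67 of 84 bases (79.8%) and Camk2g at 63 of 84 (75%). In Camk2a the matching codons are 280 and 281, of which the first is a cysteine codon and the second a methionine codon, and 68 of 84 bases of the exon matched Camk2d. The site was in 9 of 9 coding transcripts of Camk2d that begin with an annotated start codon, 10 of 10 of Camk2b, 4 of 4 of Camk2g and 2 of 5 of Camk2a. A gene count pools edited and unedited transcripts, so the values below do not show whether these codons were edited.

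In the same annotation Camk2d spans chr3:126596302-126846326 on the plus strand and Camk2b chr11:5969644-6066362 on the minus strand. Camk2g spans chr14:20734875-20794088 on the minus strand and Camk2a chr18:60925618-60988152 on the plus strand. Other annotated genes lie inside Camk2d and Camk2a, but they share 0 exonic bases with them. At 2 of the 5 Camk2a transcripts the coding sequence starts downstream of the site; such transcripts are known to give a muscle protein that lacks the kinase domain, and the gene counts do not separate them from kinase transcripts.

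Levels are given as CPM, counts scaled to a common library size. The libraries held between 20634820 and 27265276 counts, of which 7295 to 9131 fell on the 4 CaMKII genes, and mitochondrially encoded genes took 29.7 to 38.5%. Cardiomyocyte markers (8 genes such as Myh6 and Tnnt2) summed to 44600 to 50371 CPM in IR edit, 47389 to 51111 in IR virus, 44558 to 46740 in IR and 44767 to 52341 in Sham and each was above 1 CPM in every heart. Fibroblast markers (8 genes) summed to 1152 to 2131 CPM in IR edit, 1365 to 1909 in IR virus, 1261 to 1860 in IR and 1037 to 1091 in Sham, so that no injured heart overlapped Sham. For cells of the nervous system, where Camk2a and Camk2b are strongly expressed, the sum over 10 neuron and glia markers was 14.5 to 18.5 CPM in all hearts, and Prph, Th, Snap25 and Syt1 were too low to be tested. All 9 skeletal muscle markers were below 1 CPM in every heart. On the first principal component of all genes (27.5% of the variance), IR edit hearts 2 and 4 lay at 34.0 and 45.1 and hearts 1 and 3 at 10.2 and -2.80. The IR and IR virus hearts lay between -9.17 and 3.83 and the Sham hearts between -26.5 and -22.2, below every injured heart. Results are therefore also given without IR edit hearts 2 and 4 where that ends a call.

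Camk2d gave the most reads of the 4 genes in every heart. Its mean over the 13 hearts was 232 CPM, rank 414 of 15690 genes, against 53.9 CPM for Camk2g (rank 2342), 49.4 CPM for Camk2a (rank 2544) and 13.1 CPM for Camk2b (rank 6873). In raw counts a library held 4696 to 6364 reads of Camk2d, 1091 to 1514 of Camk2g, 1041 to 1545 of Camk2a and 231 to 396 of Camk2b. CPM does not correct for gene length, and the annotated exons of Camk2d together span 22493 bases, against 9125 for Camk2b, 7465 for Camk2a and 6401 for Camk2g. Divided by these lengths, the mean levels were 10.3 ± 1.15 CPM per kilobase for Camk2d, 8.42 ± 0.557 for Camk2g, 6.62 ± 0.541 for Camk2a and 1.44 ± 0.175 for Camk2b (SD, n = 13). Camk2d ran from 8.77 to 12.4 and Camk2g from 7.64 to 9.41 CPM per kilobase, so these neighbours in the order overlapped, as did Camk2g with Camk2a (6.04 to 7.68). Camk2b, at 1.20 to 1.80, lay below the other 3 in every heart.

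**Figure D1:**
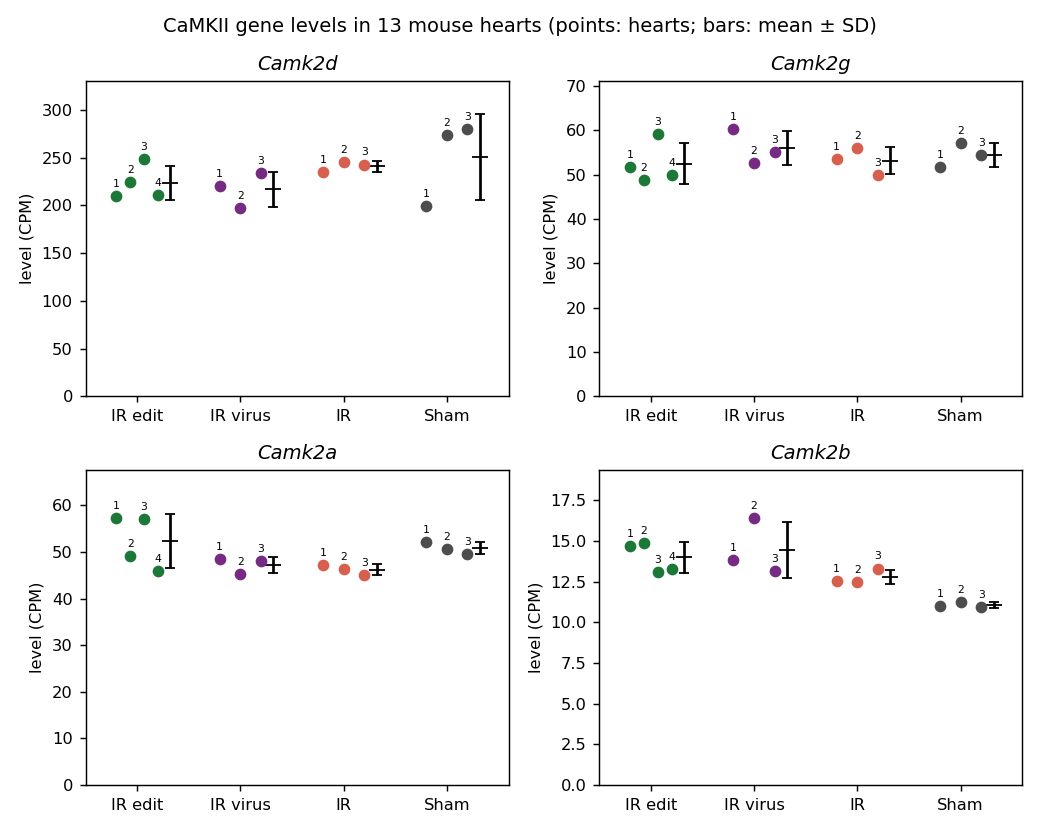
Level of each CaMKII gene in each heart, in CPM (y axis, from 0), by group (x axis: IR edit, IR virus, IR, Sham); numbered points are hearts and bars give the mean ± SD. Camk2b lies between 12.5 and 16.4 CPM in the 10 injured hearts and between 10.9 and 11.2 CPM in Sham, whereas Sham heart 1 lies below the other Sham hearts for Camk2d.

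Camk2d, the gene at which the editing system was aimed, did not differ between groups beyond the spread of the hearts. Its level was 210, 225, 248 and 211 CPM in the IR edit hearts, 221, 197 and 233 CPM in IR virus, 235, 245 and 243 CPM in IR and 199, 274 and 280 CPM in Sham. Sham heart 1 lay below the other Sham hearts and below 9 of the 10 injured hearts, and the Sham range enclosed every other heart but IR virus heart 2. The means were 223 ± 17.9 CPM in IR edit (SD, n = 4), 217 ± 18.4 in IR virus (n = 3), 241 ± 5.42 in IR (n = 3) and 251 ± 45.1 in Sham (n = 3). The coefficient of variation in Sham was 18.0%, against 1.31% that counting alone would give.

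Between IR edit and IR virus the log2 fold change of Camk2d was 0.04 ± 0.11 (SE; 95% interval -0.19 to 0.27), and edgeR's quasi-likelihood test with Benjamini-Hochberg adjustment over all genes gave an adjusted p of 0.896. Against IR, IR edit differed by -0.11 ± 0.11 (adjusted p = 0.696) and IR virus by -0.15 ± 0.11 (adjusted p = 0.962) in the same test. Against Sham the log2 fold changes were -0.17 ± 0.11 for IR edit, -0.21 ± 0.11 for IR virus and -0.06 ± 0.11 for IR, with adjusted p of 0.369, 0.394 and 0.927. These 3 comparisons share their Sham hearts, and their size depended on which Sham heart was left out. Without Sham heart 1 the values were -0.31 for IR edit (adjusted p = 0.0593), -0.36 for IR virus (adjusted p = 0.178) and -0.21 for IR (adjusted p = 0.69), whereas without Sham heart 2 or 3 they were -0.10 or -0.08 for IR edit (adjusted p = 0.682 or 0.747), -0.14 or -0.13 for IR virus (adjusted p = 0.611 or 0.732) and 0.01 or 0.02 for IR (adjusted p = 0.995 or 0.97). The value between IR edit and IR virus lay between -0.02 and 0.10 when single hearts were left out.

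Camk2g, which encodes the γ subunit found in many tissues, was the steadiest member from heart to heart, with a coefficient of variation of 6.62% over the 13 hearts. It stood at 51.8, 48.9, 59.1 and 49.8 CPM in IR edit, 60.3, 52.7 and 55.2 CPM in IR virus, 53.5, 56.0 and 50.0 CPM in IR and 51.7, 57.2 and 54.4 CPM in Sham. The 4 groups overlapped throughout. The group means lay between 52.4 ± 4.62 CPM in IR edit (SD, n = 4) and 56.1 ± 3.85 in IR virus (n = 3), and no comparison of Camk2g passed edgeR's test. Its log2 fold change was -0.10 ± 0.080 (SE; 95% interval -0.27 to 0.07, adjusted p = 0.598) between IR edit and IR virus, and -0.02 ± 0.069 (95% interval -0.16 to 0.13, adjusted p = 0.930) between the mean of the 3 injured groups and Sham.

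Camk2a, the gene of the α subunit and of the kinase-less muscle protein named above, had its highest values in IR edit. It stood at 57.3, 49.2, 57.0 and 45.9 CPM in IR edit, 48.4, 45.3 and 47.9 CPM in IR virus, 47.3, 46.3 and 45.1 CPM in IR and 52.2, 50.7 and 49.5 CPM in Sham. IR edit hearts 1 and 3 were above all other hearts, and IR edit heart 4 was within the range of IR virus and of IR. The 2 hearts with the highest values on the first component of all genes were IR edit hearts 2 and 4, not 1 and 3. The log2 fold change between IR edit and IR virus was 0.15 ± 0.079 (SE; adjusted p = 0.394) and that between IR edit and IR 0.18 ± 0.079 (adjusted p = 0.312), neither past the threshold of 0.05 in edgeR's test. Against Sham it was 0.04 for IR edit, -0.11 for IR virus and -0.14 for IR, with adjusted p of 0.797, 0.558 and 0.699.

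Camk2b, the gene of the β subunit, an actin-binding form known mainly from brain, was the lowest of the 4 and the single member called by the test. It stood at 14.7, 14.9, 13.1 and 13.3 CPM in the IR edit hearts, 13.8, 16.4 and 13.2 CPM in IR virus, 12.6, 12.5 and 13.3 CPM in IR, and 11.0, 11.2 and 10.9 CPM in Sham. All 10 injured hearts lay above all 3 Sham hearts. Of all genes tested, 2.24% had all injured hearts above Sham and 1.67% had them all below. The means were 14.0 ± 0.931 CPM in IR edit (SD, n = 4), 14.5 ± 1.72 in IR virus (n = 3), 12.8 ± 0.452 in IR (n = 3) and 11.1 ± 0.159 in Sham (n = 3).

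In IR edit against Sham Camk2b rose by 0.34 ± 0.092 (SE) on the log2 scale, a fold of 1.26 (edgeR's quasi-likelihood test, adjusted p = 0.0354). That made 1 of the 4 members called in this comparison, in which 8.01% of all genes tested were called (4.61% higher and 3.40% lower). The 1257 calls behind that share ran from 478 without IR edit heart 2 to 2351 without IR edit heart 3, and also moved by over 1.5 times without IR edit heart 4 or any of the Sham hearts. In IR virus against Sham the log2 fold change was 0.39 ± 0.097 and did not pass (adjusted p = 0.137 in the same test). There 0 of the 4 members and 0.0127% of all genes were called. Before adjustment edgeR's p for Camk2b was 0.0012 in IR virus against Sham and 0.00216 in IR edit against Sham. The single call thus does not mean a stronger rise in IR edit. In IR against Sham the log2 fold change of Camk2b was 0.21 ± 0.098 (adjusted p = 0.601), again with 0 of the 4 members and 0.0127% of all genes called. The mean of the 3 injured groups differed from Sham by 0.31 ± 0.080 (adjusted p = 0.0681), with 0 of the 4 members and 1.22% of all genes called. Those 191 calls ran from 1 without Sham heart 1 or 3 to 1138 without IR edit heart 3, and stayed within 1.5 times without IR virus heart 2, IR edit heart 4 or IR heart 3 alone.

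Among the injured groups Camk2b did not differ beyond the spread. The log2 fold change was -0.05 ± 0.090 (95% interval -0.24 to 0.14, adjusted p = 0.842) between IR edit and IR virus, 0.13 ± 0.091 (adjusted p = 0.558) between IR edit and IR, and 0.18 ± 0.096 (adjusted p = 0.962) between IR virus and IR, all in edgeR's test. None of the 4 members was called in these comparisons, where 2.02%, 1.42% and 0% of all genes were called; IR virus against IR had 603 genes at an unadjusted p under 0.05, and DESeq2 also called 0. In a test of any difference among the 4 groups the adjusted p was 0.0858 for Camk2b, 0.374 for Camk2a, 0.519 for Camk2d and 0.797 for Camk2g, so 0 of the 4 passed, against 3.36% of all genes.

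The call of Camk2b in IR edit against Sham was close to the threshold. Its log2 fold change stayed between 0.31 and 0.36 when single hearts were left out, but edgeR's adjusted p was above 0.05 in 8 of 13 such fits. These left out IR edit heart 1 (0.0682), 2 (0.112) or 4 (0.0603), Sham heart 1 (0.0964), 2 (0.0792) or 3 (0.09), or IR heart 1 (0.0535) or 2 (0.0549). Without IR edit hearts 2 and 4 together it was 0.33 with an adjusted p of 0.241. The mean of the injured groups against Sham kept a log2 fold change of 0.28 to 0.33 and passed without IR edit heart 3 (adjusted p = 0.0297) and in DESeq2's Wald test (adjusted p = 0.0350).

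**Figure D2:**
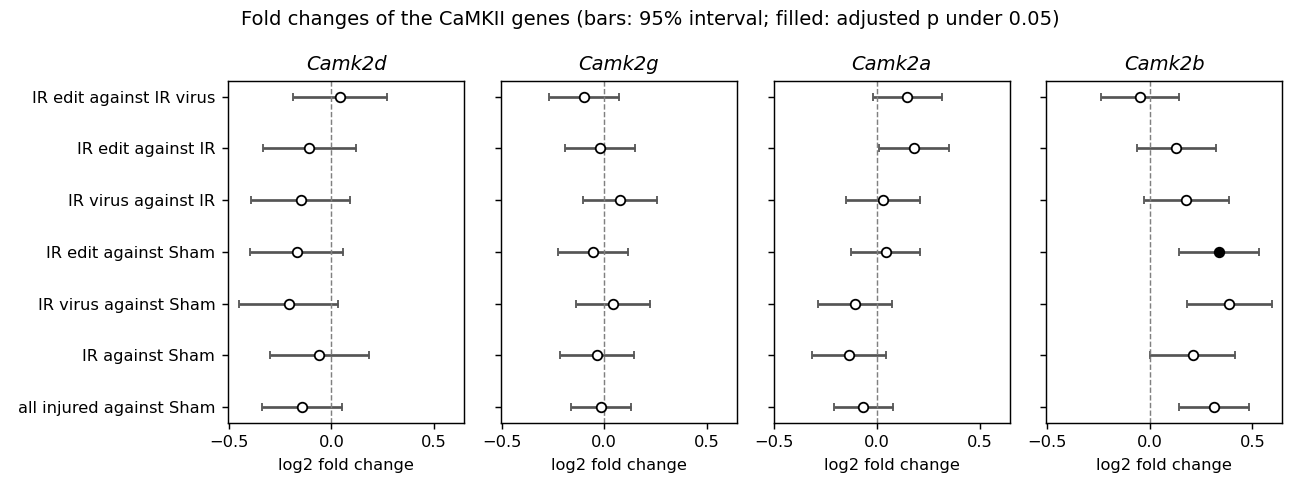
Log2 fold change of the 4 CaMKII genes (x axis) in the comparisons of the 4 groups, with bars for the 95% interval from edgeR's quasi-likelihood fit. Camk2b lies at 0.34 in IR edit against Sham, the single value past an adjusted p of 0.05, and Camk2d lies at 0.04 in IR edit against IR virus, with an interval from -0.19 to 0.27.

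Of the 10 neuron and glia markers, 6 were tested and 0 were called in any comparison, and the groups overlapped: their sum was 14.5 to 16.9 CPM in IR edit, 14.7 to 17.5 in IR virus, 15.1 to 18.5 in IR and 14.7 to 17.5 in Sham. Fibroblast markers, like Camk2b, were higher in the injured groups than in Sham. Of their 8 genes, 4 rose in IR edit against Sham and 3 in the mean of the injured groups against Sham, where 4.61% of all genes were called higher and 1.22% were called, and as given above their sums did not overlap Sham. In heart order the fibroblast sum was 1347, 1743, 1152 and 2131 CPM in IR edit. It was 1909, 1365 and 1907 CPM in IR virus and 1860, 1849 and 1261 CPM in IR. The Camk2b levels of the same hearts are given above. The part of the fibroblast markers in the Camk2b difference was not tested. In RNA from a whole heart, fewer cells of a type and less RNA per cell cannot be told apart.

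The balance of the 4 genes within a heart was described by their shares of the CaMKII total after each count was divided by exon length. Over the 13 hearts Camk2d held 38.5% ± 2.68, Camk2g 31.4% ± 1.46, Camk2a 24.7% ± 1.86 and Camk2b 5.41% ± 0.846 (SD, n = 13). These shares depend on which length is used, since many annotated Camk2d exons belong to few transcripts. With the longest transcript of each gene Camk2d held 60.2%, Camk2g 20.9%, Camk2a 14.3% and Camk2b 4.61%. With the longest coding sequence Camk2d held 66.7%, Camk2a 15.6%, Camk2g 14.7% and Camk2b 3.06%. Camk2d was thus first and Camk2b last under each length, whereas Camk2g and Camk2a changed places with the coding length.

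**Figure D3:**
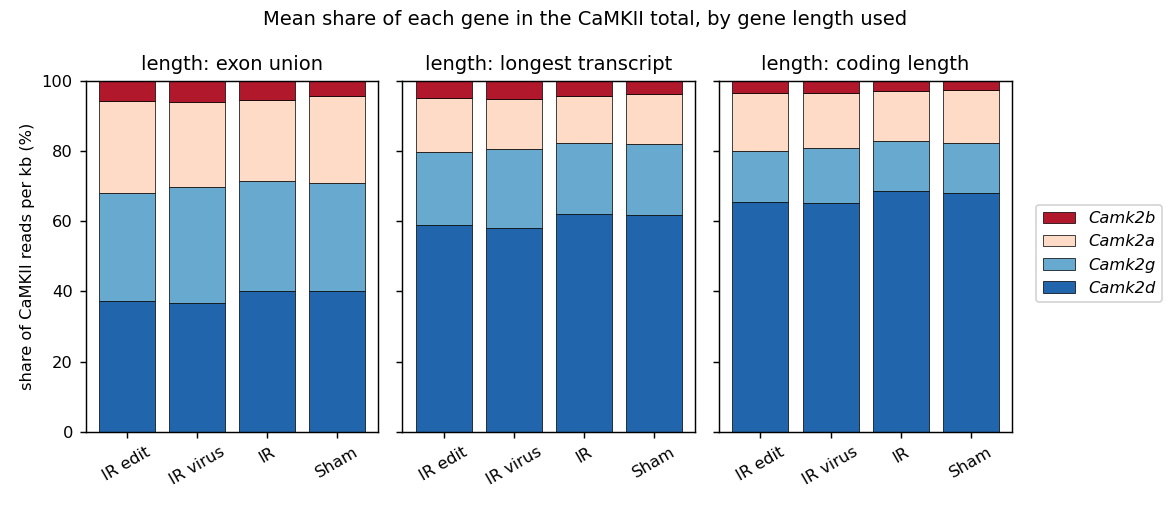
Mean share of each CaMKII gene in the length-corrected CaMKII total (y axis, percent), as stacked bars for IR edit, IR virus, IR and Sham. The panels use the exon-union length, the longest transcript and the coding length. Over all hearts Camk2d holds 38.5%, Camk2g 31.4%, Camk2a 24.7% and Camk2b 5.41% with exon-union lengths.

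Camk2b had a share of 5.71% ± 0.697 in the 10 injured hearts and 4.40% ± 0.357 in the 3 Sham hearts (SD), a difference of 1.31 percentage points with no overlap at exon-union lengths. The exact two-sided permutation test gave p = 0.0105, and p = 0.267 after Benjamini-Hochberg adjustment over 28 comparisons of shares (4 genes in 7 comparisons). Under the other lengths the injured and Sham hearts did overlap. With the longest transcript the lowest IR edit heart, at 4.20%, lay below the highest Sham heart, at 4.23%. The coding length (2.78 against 2.81%) and raw reads (3.47 against 3.51%) gave the same order. By group the Camk2b share was 5.77% ± 0.617 in IR edit (SD, n = 4), 6.06% ± 1.03 in IR virus (n = 3), 5.27% ± 0.285 in IR (n = 3) and 4.40% ± 0.357 in Sham (n = 3).

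Camk2g held 30.7% ± 0.928 in IR edit and 33.3% ± 1.25 in IR virus without overlap (SD, n = 4 and 3; exact permutation p = 0.0286, adjusted 0.267). Camk2a held 26.3% ± 1.73 in IR edit, and IR virus at 24.0% ± 0.302 and IR at 23.3% ± 0.569 did not overlap it (exact permutation p = 0.0571 for both, adjusted 0.267). Under the other lengths the Camk2a shares of IR edit and IR virus did overlap. The lowest IR edit and highest IR virus hearts stood at 14.41 and 14.45% with the longest transcript. They stood at 15.70 and 15.95% with the coding length, and at 14.35 and 14.53% by raw reads. Camk2d held 37.3% ± 1.63 in IR edit and 40.3% ± 1.01 in IR, also without overlap (exact permutation p = 0.0571, adjusted 0.267). The Camk2d share in IR virus, 36.6% ± 1.77, did not overlap IR either, at a difference of -3.62 points (exact permutation p = 0.10, the smallest that 3 against 3 hearts can give, adjusted 0.311). No share passed after adjustment, and the smallest p that 4 against 3 hearts can give is 0.0286.

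A ratio of raw counts within a library needs neither library scaling nor gene length. For each 100 reads of Camk2d there were 7.01, 6.63, 5.28 and 6.30 reads of Camk2b in the IR edit hearts, 6.27, 8.34 and 5.65 in IR virus, 5.36, 5.10 and 5.49 in IR and 5.55, 4.11 and 3.91 in Sham. Sham hearts 2 and 3 were below all injured hearts, whereas Sham heart 1, with its low Camk2d, was within their range. The log2 ratio averaged -4.04 ± 0.221 in the 10 injured hearts and -4.48 ± 0.273 in the 3 Sham hearts (SD), a difference of 0.44 (exact permutation p = 0.0210, adjusted 0.30 over 21 comparisons of ratios). Without Sham heart 1 the difference was 0.60.

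For each 100 reads of Camk2d there were 27.3, 21.9, 23.0 and 21.8 reads of Camk2a in IR edit, 22.0, 23.0 and 20.5 in IR virus, 20.1, 18.9 and 18.6 in IR and 26.2, 18.5 and 17.7 in Sham. The IR edit hearts were all above the IR hearts, at log2 ratios of -2.10 ± 0.154 and -2.38 ± 0.0616 (SD, n = 4 and 3), which gave the smallest exact permutation p that these numbers allow (0.0286, adjusted 0.30). The IR virus hearts were also all above the IR hearts in this ratio, by 0.18, as they were for Camk2b by 0.33 and for Camk2g by 0.23 (exact permutation p = 0.10 for each, the smallest possible with 3 against 3, adjusted 0.30). The Sham hearts spanned nearly the whole range. Reads of Camk2g per 100 of Camk2d lay between 21.8 and 24.7 in IR edit, 23.6 and 27.3 in IR virus, 20.6 and 22.8 in IR and 19.5 and 26.0 in Sham. No ratio passed after adjustment, where 0.30 was the lowest value. A single ratio at the smallest exact permutation p of its comparison could not pass over 21 comparisons, so these values cannot show unchanged ratios.

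**Figure D4:**
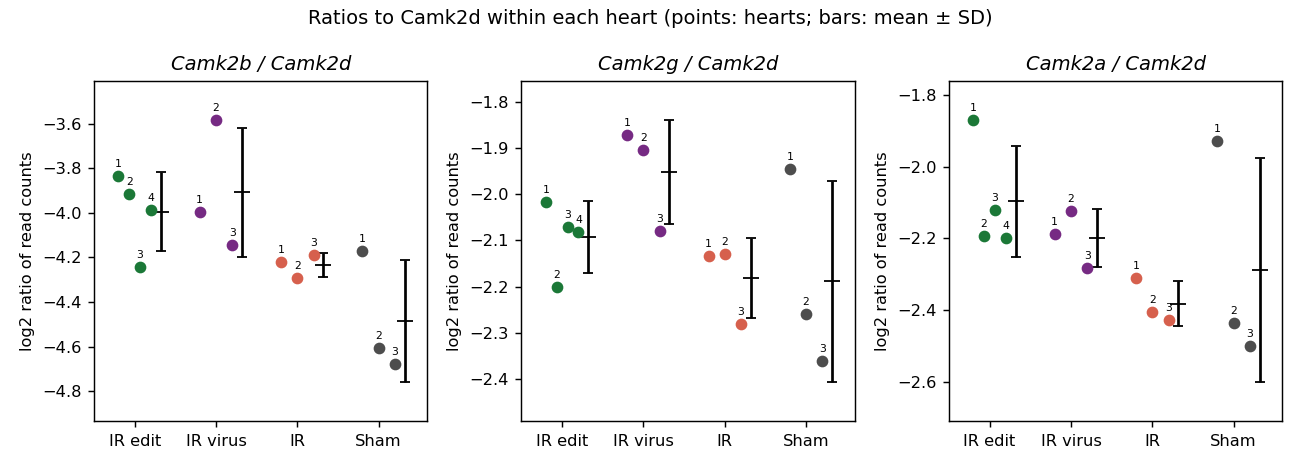
Log2 ratio of Camk2b, Camk2g and Camk2a counts to Camk2d counts within each heart (y axis), by group; points are hearts and bars the mean ± SD. The Camk2b ratio averages -4.04 in the 10 injured hearts and -4.48 in Sham, and Sham heart 1 lies above the other Sham hearts in all 3 ratios.

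From heart to heart no relation between the 4 genes over all 13 hearts passed correction for the 6 pairs. Camk2b and Camk2d had the strongest relation over the 13 hearts, with Pearson's r = -0.58 and Spearman's rho = -0.59 (permutation p = 0.0381 and 0.0357, adjusted 0.229 and 0.214). It rested on the hearts at the ends of the range, since r was -0.25 without IR virus heart 2 and Sham heart 3. After the group means were subtracted, the r of the largest size was 0.58, between Camk2a and Camk2g (rho = 0.54, permutation p = 0.0374 and 0.0614, adjusted 0.125 and 0.123), and it was 0.74 without IR edit hearts 1 and 4 (permutation p = 0.00806, adjusted 0.0309). Between Camk2a and Camk2b r was -0.17 in these deviations (rho = -0.26, permutation p = 0.567 and 0.394, adjusted 0.681 and 0.473), and -0.74 without the same hearts (permutation p = 0.0103, adjusted 0.0309). Both relations thus passed only with those hearts left out.

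Each member was also compared with 9411 protein-coding genes of at least 5 CPM by Pearson's r of log2 CPM over the 13 hearts, as a description. Closest to Camk2d were Rpl15, a ribosomal protein gene whose near-identical copies make its count uncertain (r = 0.92, rho = 0.93), Nipa2, a magnesium transporter gene (r = 0.91, rho = 0.91), Magi3, a scaffold protein gene (r = 0.89, rho = 0.93), and Sephs1 (r = 0.89, rho = 0.84). Closest to Camk2b were Slc43a2, an amino acid transporter gene (r = 0.92, rho = 0.95), Scd1, which makes monounsaturated fatty acids (r = 0.87, rho = 0.75), Vac14, of the complex that makes a phosphoinositide of endosomes (r = 0.87, rho = 0.91), and Tmco4 (r = 0.86, rho = 0.85). Closest to Camk2g were Osbp, an oxysterol-binding protein gene (r = 0.84, rho = 0.83), Efnb3, an ephrin ligand gene (r = 0.82, rho = 0.75), Fbxo21 (r = 0.82, rho = 0.82) and Gpd1l (r = 0.82, rho = 0.82). Closest to Camk2a were Epb41l3, a membrane skeleton gene (r = 0.87, rho = 0.88), Rgs2, a brake on G-protein signalling (r = 0.87, rho = 0.65), Sart3 (r = 0.86, rho = 0.72) and Tirap, an adaptor of Toll-like receptors (r = 0.82, rho = 0.68).

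The genes around CaMKII were followed by lists ordered by role, from the calcium signal to the kinase's partners. Of the 5 calmodulin genes and calmodulin buffers, 4 were tested and 0 were called by edgeR in any of the 7 comparisons with all 13 hearts and the filter. Calm2 and Calm3, which encode calmodulin, ran from 63.4 to 90.8 and 71.1 to 87.2 CPM over the 13 hearts. Nrgn, the neurogranin gene, had the smallest p in the test over the 4 groups (adjusted p = 0.0744), and passed it with no filter (1.05e-06), without IR heart 3 (0.0307) and without IR edit hearts 2 and 4 (0.0408). It stood at 4.60, 2.55, 3.36 and 2.23 CPM in IR edit, 1.63, 1.47 and 1.22 CPM in IR virus, 1.04, 1.32 and 2.38 CPM in IR and 2.27, 1.94 and 1.42 CPM in Sham. Of 8 other calmodulin-dependent kinase genes 6 were tested and 0 were called; Camk1d, a gene of the CaMKI family, had the smallest p over the 4 groups (adjusted p = 0.219).

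Among CaMKII inhibitors and phosphatases, 9 genes were tested and Camk2n1 and Ppm1e were called. Camk2n1 was called higher in IR edit against each of the other groups. Ppm1e was called higher in IR edit and in the injured mean, both against Sham. In IR edit against Sham that was 2 of 9, where 8.01% of all genes were called. In IR edit against IR virus and against IR it was 1 of 9 each, where 2.02% and 1.42% were called. In the injured mean against Sham it was 1 of 9, where 1.22% were called. The median log2 fold change of the list was 0.22 in IR edit against IR virus and 0.06 in IR edit against Sham, where the medians of all genes lay within 0.0101 of 0. Camk2n1 encodes an inhibitor protein that binds active CaMKII. Its level was 36.1, 40.6, 34.3 and 44.6 CPM in the IR edit hearts, 25.4, 24.9 and 28.5 CPM in IR virus, 26.8, 23.5 and 26.7 CPM in IR and 29.8, 25.9 and 27.5 CPM in Sham. Every IR edit heart was above the other 9 hearts. The share of all genes that separated in this way was not counted, so this separation is a description only.

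The rise of Camk2n1 in IR edit on the log2 scale was 0.57 ± 0.097 against IR virus (SE; adjusted p = 0.00812), 0.60 ± 0.097 against IR (adjusted p = 0.00592) and 0.49 ± 0.097 against Sham (adjusted p = 0.00903), all from edgeR's test. Between IR virus and IR it was 0.03 ± 0.10 (adjusted p = 0.985), between IR virus and Sham -0.08 ± 0.10 (adjusted p = 0.736) and between IR and Sham -0.11 ± 0.10 (adjusted p = 0.815). The call against IR virus was lost without IR virus heart 1 (0.54, adjusted p = 0.0524), and the call against IR without IR heart 2 (0.54, adjusted p = 0.0537). The call against Sham was lost in a fit of the IR edit and Sham libraries alone (0.48, adjusted p = 0.0539). All 3 were lost when IR edit hearts 2 and 4 were left out together, at 0.42, 0.46 and 0.34 against IR virus, IR and Sham (adjusted p = 0.0801, 0.0599 and 0.142). The remaining IR edit hearts 1 and 3 stood at 36.1 and 34.3 CPM.

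Ppm1e encodes a phosphatase known to act on CaM kinases. It stood at 28.1, 36.4, 26.3 and 40.3 CPM in IR edit, 22.8, 22.4 and 24.9 CPM in IR virus, 26.8, 25.0 and 27.4 CPM in IR and 15.7, 16.7 and 19.8 CPM in Sham. The injured hearts were all above Sham. It rose by 0.91 ± 0.13 in IR edit against Sham (SE, log2; adjusted p = 0.00155 in edgeR's test), and this call held in each of the 13 fits without a single heart and without IR edit hearts 2 and 4 (0.65, adjusted p = 0.00707). In the mean of the injured groups against Sham it rose by 0.65 ± 0.12 (adjusted p = 0.0309), a call lost in 7 of 13 fits, without IR virus heart 1 (0.0677) or 3 (0.0636), Sham heart 1 (0.13), 2 (0.0762) or 3 (0.0857), or IR heart 1 (0.0723) or 2 (0.0597). In IR edit against IR virus Ppm1e differed by 0.49 ± 0.13 and was not called (adjusted p = 0.0711). Ppm1f, the related phosphatase gene, averaged 40.6 ± 3.74 CPM in IR edit (SD, n = 4), 42.6 ± 2.93 in IR virus (n = 3), 39.3 ± 3.25 in IR (n = 3) and 39.3 ± 1.53 in Sham (n = 3), with no call.

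**Figure D5:**
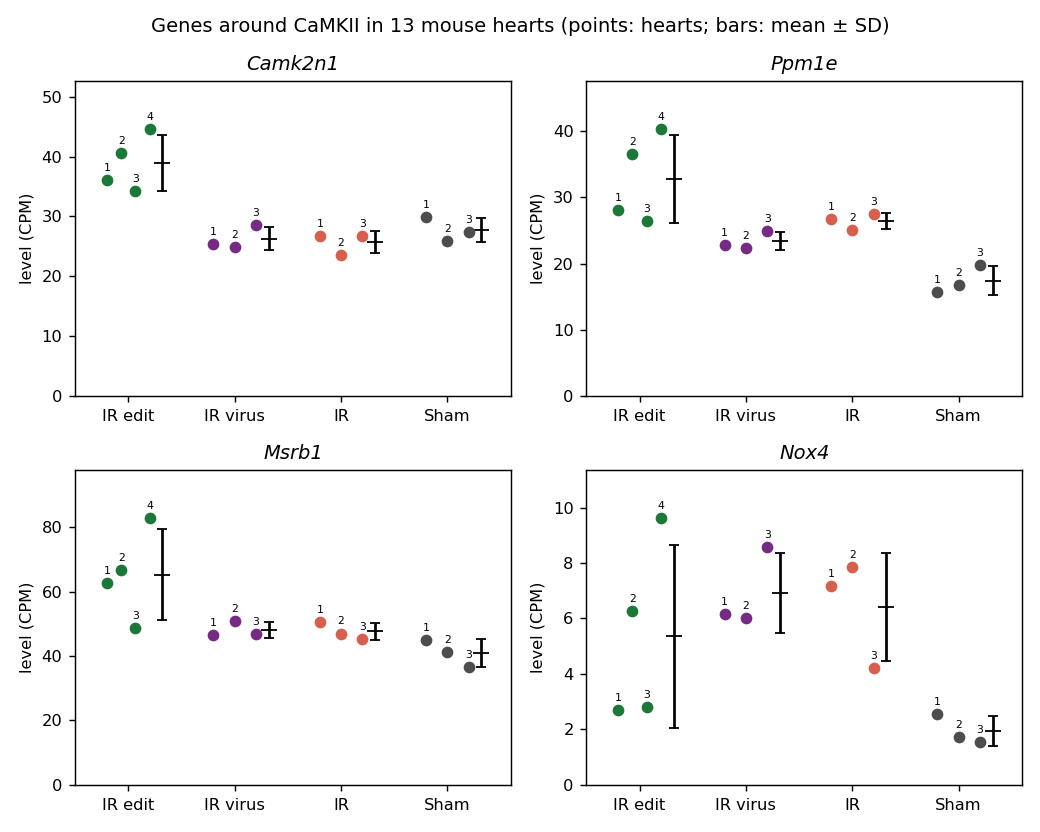
Level in CPM (y axis, from 0) of Camk2n1 (inhibitor), Ppm1e (phosphatase), Msrb1 (methionine sulfoxide reductase) and Nox4 (NADPH oxidase) by group; numbered points are hearts and bars the mean ± SD. For Camk2n1 the IR edit hearts lie between 34.3 and 44.6 CPM, and for Ppm1e the 10 injured hearts lie above Sham.

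Since the title names oxidation, genes that reduce oxidised methionines and genes that make oxidants were also listed. Of 4 methionine sulfoxide reductase genes 1 was called in IR edit against Sham, beside 8.01% of all genes. Msrb1 stood at 62.7, 66.6, 48.6 and 82.9 CPM in IR edit, 46.6, 50.9 and 46.8 CPM in IR virus, 50.6, 47.0 and 45.4 CPM in IR and 45.0, 41.3 and 36.5 CPM in Sham. IR edit heart 3 was within the range of IR virus and of IR, and the other IR edit hearts were above every other heart. It rose by 0.67 ± 0.13 in IR edit against Sham (SE, log2; adjusted p = 0.00882 in edgeR's test), was lost without IR edit hearts 2 and 4 (0.44, adjusted p = 0.0949) and in a fit of only these groups (0.67, adjusted p = 0.0625), and had a value of 0.44 ± 0.13 against IR virus (adjusted p = 0.108). Msra, the reductase known to act on CaMKII, averaged 25.5 ± 1.01 CPM in IR edit (SD, n = 4), 24.8 ± 0.626 in IR virus (n = 3), 26.3 ± 1.86 in IR (n = 3) and 25.3 ± 3.71 in Sham (n = 3).

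Of 8 NADPH oxidase genes, which make reactive oxygen species, 1 was called in IR edit against Sham, a share near the 8.01% of all genes called there. Nox4, a constitutively active oxidase, stood at 2.71, 6.27, 2.79 and 9.63 CPM in IR edit, 6.17, 6.01 and 8.59 CPM in IR virus, 7.19, 7.84 and 4.20 CPM in IR and 2.57, 1.72 and 1.56 CPM in Sham. IR edit hearts 1 and 3 were close to the highest Sham heart, heart 2 was within the range of the IR virus and IR hearts, and heart 4 was above it. It rose by 1.44 ± 0.41 in IR edit against Sham (SE, log2; adjusted p = 0.0440 in edgeR's test) and by 1.65 ± 0.37 in the mean of the injured groups against Sham (adjusted p = 0.0489).

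The first Nox4 call held only without IR edit heart 1, IR edit heart 3 or IR heart 3, and each of the other 10 single omissions ended it, with adjusted p between 0.054 and 0.134. Without IR edit heart 4 its value was 0.99 (adjusted p = 0.134) and without hearts 2 and 4 it was 0.48 (adjusted p = 0.626). The second ended in 9 of 13 omissions (each IR virus heart, each Sham heart, IR edit heart 2 and IR hearts 1 and 2), with adjusted p between 0.054 and 0.151. A robust dispersion ended both (0.0907 and 0.0926), a fit of only the IR edit and Sham hearts the first (0.116), and a filter of 1 CPM in 3 libraries the second (0.0505). Cybb, the oxidase gene of phagocytes, averaged 17.6 ± 1.41 CPM in IR edit (SD, n = 4), 20.6 ± 0.739 in IR virus (n = 3), 20.6 ± 2.55 in IR (n = 3) and 17.5 ± 3.87 in Sham (n = 3) and was not called.

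Among 8 cardiac CaMKII substrates, 1 was called in IR edit against Sham, a share near the 8.01% of all genes called there. Mybpc3, cardiac myosin-binding protein C, stood at 3660, 3842, 3249 and 3991 CPM in IR edit, 3973, 3835 and 3410 CPM in IR virus, 3414, 3233 and 3090 CPM in IR and 2544, 3067 and 2503 CPM in Sham, where every injured heart was above Sham. It rose by 0.45 ± 0.098 in IR edit against Sham (SE, log2; adjusted p = 0.0143) and by 0.39 ± 0.086 in the mean of the injured groups (adjusted p = 0.0489) in edgeR's test. The first call was lost without Sham heart 1 (0.0631) or 3 (0.0573) or without IR edit hearts 2 and 4 (0.35, adjusted p = 0.159) and in a fit of only these groups (0.0796), and the second in 8 of 13 omissions (each IR virus heart, IR edit heart 2, Sham hearts 1 and 3, and IR hearts 1 and 2; adjusted p between 0.0586 and 0.159), with a robust dispersion (0.0509) and with a filter of 1 CPM in 3 libraries (0.0501). Ryr2, the calcium release channel, averaged 1961 ± 193 CPM in IR edit (SD, n = 4), 2099 ± 112 in IR virus (n = 3), 2184 ± 339 in IR (n = 3) and 2331 ± 77.9 in Sham (n = 3), and was not called. Pln, phospholamban, a brake on the calcium pump, averaged 2102 ± 409 CPM in IR edit, 2157 ± 221 in IR virus, 2413 ± 18.4 in IR and 2796 ± 287 in Sham, again with no call.

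Among CaMKII anchors 4 of 5 genes were tested and 2 were called, both higher in IR edit against Sham, where 4.61% of all genes were called higher. Actn2, an α-actinin of the Z-disc that binds CaMKII, rose by 0.33 ± 0.083 (SE, log2; adjusted p = 0.0270), at means of 1564 ± 121 CPM in IR edit (SD, n = 4) and 1245 ± 108 in Sham (n = 3). The IR virus hearts, at 1654, 1569 and 1493 CPM, lay within the IR edit range of 1442 to 1711 CPM. The IR hearts stood at 1339, 1328 and 1414 CPM. The call of Actn2 thus does not mean a rise particular to IR edit. Ank3, an ankyrin, rose by 0.38 ± 0.091 (adjusted p = 0.0202 in edgeR's test), at means of 146 ± 17.8 CPM in IR edit (n = 4) and 112 ± 7.94 in Sham (n = 3). Ank3 stood at 113, 124 and 118 CPM in IR virus and at 108, 117 and 120 CPM in IR. Both calls ended without IR edit heart 2 or 4 or Sham heart 1 or 3, with adjusted p between 0.0596 and 0.105 for Actn2 and between 0.0595 and 0.0746 for Ank3. Without IR edit hearts 2 and 4 together the values were 0.24 for Actn2 (adjusted p = 0.292) and 0.23 for Ank3 (adjusted p = 0.303), and a fit of only these groups also ended both calls (adjusted p = 0.115 and 0.0927).

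Splicing regulators were listed because Camk2d is known to be spliced into several forms, which gene counts do not separate. Of 9 tested, 1 was called in IR edit against Sham, a share near the 8.01% of all genes called there. Rbfox1, an RNA-binding splicing factor of muscle and brain, stood at 44.0, 28.4, 56.4 and 25.2 CPM in IR edit, 44.2, 51.6 and 46.2 CPM in IR virus, 42.7, 47.8 and 45.2 CPM in IR and 64.2, 63.7 and 70.0 CPM in Sham. All injured hearts were below Sham, and IR edit hearts 2 and 4 were the lowest. It fell by 0.78 ± 0.19 in IR edit against Sham (SE, log2 scale; adjusted p = 0.0251 in edgeR's test), a call lost without IR edit heart 2 (0.0818) or 4 (0.055), without any Sham heart (0.0579, 0.0534 and 0.0763 without hearts 1, 2 and 3), and without IR edit hearts 2 and 4 together (-0.40, adjusted p = 0.129). It was also lost with a robust dispersion (0.0554) and in a fit of only these groups (0.106). Rbm20 and Srsf1, splicing factors known to act on Camk2d, averaged 253 ± 20.8 and 154 ± 13.3 CPM in IR edit (SD, n = 4) and 300 ± 15.9 and 169 ± 6.73 CPM in Sham (n = 3), neither called. In IR virus Rbm20 stood at 294, 269 and 283 CPM and Srsf1 at 130, 139 and 148 CPM. In IR Rbm20 stood at 286, 279 and 288 CPM and Srsf1 at 150, 148 and 158 CPM.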

How the data were processed

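Whole-heart RNA was extracted with the RNeasy Micro kit and made into libraries with the KAPA mRNA HyperPrep kit, per the labels' protocols. Each of the 13 files, as deposited by the authors, holds the read counts of a library by gene symbol, with no scaling. The submitters' processing notes name FastQC 0.11.8, Trimmomatic 0.39, HISAT2 2.1.0, featureCounts 1.6.2 and the mm10 build. Which annotation and strand setting the counting used is not given in the sources used here, so reads from antisense genes cannot be told apart. Reads that align to near-identical copies may be lost or split. Samples were grouped by title.

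Counts were scaled with TMM and filtered with filterByExpr in edgeR 4.0.16 (R 4.3.3), which left 15690 genes. A model of 4 group means was fitted to all 13 libraries (9 residual degrees of freedom, common biological coefficient of variation 0.116), tested with edgeR's quasi-likelihood test in 7 contrasts (the 6 pairs of groups, and the mean of the 3 injured groups against Sham), and adjusted by Benjamini-Hochberg over all genes, with 0.05 as the threshold. SE is the size of the log2 fold change over the square root of the F statistic. CPM are counts divided by TMM-adjusted library sizes. Gene models came from GENCODE M21, in which 49721 of the 53278 symbols (93.3%) were found. Ratios (with 0.5 added to each count) and shares were compared by exact two-sided permutation over hearts in scipy 1.17.1, and pairs of genes by 100000 permutations. The text names all 4 CaMKII genes, up to 3 called genes per list by smallest p (or the smallest p over the 4 groups), and the 4 genes most like each member. Levels of Calm2, Calm3, Ppm1f, Msra, Cybb, Ryr2, Pln, Rbm20 and Srsf1 were added for their known roles after their values were seen. The members, lists and alternatives were chosen with earlier results of these data known.

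No replicate pair agreed within counting noise (chi-square per degree of freedom 4.83 to 57.0). Counting error alone is small at 231 or more reads per gene and library. The fit was tested on simulated data with planted changes of 1.5 and 2 times. In IR edit against IR virus 82% of the 1.5-fold and 100% of the 2-fold changes were called. In the injured mean against Sham 91 and 100% were called. Changes as small as those of the 4 CaMKII genes were not planted, so their recovery is not known. The alternatives were DESeq2's size factors and its Wald test (1.42.0), no filter, 1 CPM in 3 libraries, a robust dispersion, a replicate block, only the groups compared, other gene lengths, mitochondrial genes left out, and each heart or IR edit hearts 2 and 4 left out.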

Additional observations from a re-analysis of the deposited data

Results flagged for a closer look

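Camk1d, a CaMKI-family kinase gene, stood at 9.10 CPM in IR edit heart 2, apart from 7.09, 6.83 and 7.0 CPM in IR edit hearts 1, 3 and 4, a gap that takes up most of the group's range. Its values were 8.32, 7.64 and 8.25 CPM in IR virus, 8.79, 8.48 and 7.97 CPM in IR and 7.33, 5.51 and 6.05 CPM in Sham. Chance sets apart a value in about 1 in 20 sets of 4 values by this measure. The 21 sets looked at were gene levels, ratios and shares in the same IR edit hearts, and are not independent.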

How the results depend on the processing

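The call of Camk2b in IR edit against Sham was lost with no filter (0.33, adjusted p = 0.0789), with a replicate block (0.36, 0.0545), in a fit of only the groups compared (0.33, 0.0914) and without IR edit hearts 2 and 4 (0.33, 0.241). It held with DESeq2's size factors and Wald test, with a filter of 1 CPM in 3 libraries, with a robust dispersion and without mitochondrial genes. The injured mean against Sham passed for Camk2b with DESeq2's Wald test (0.31, adjusted p = 0.0350). Camk2g, near 0 in these comparisons, turned sign without IR edit hearts 2 and 4 in IR edit against IR (0.060), IR edit against Sham (0.025) and the injured mean against Sham (0.011). The cause was not tested.

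Deviations of same-numbered hearts from their group means had r above 0.1 in 3 of 18 pairs (-0.13 to 0.22). With groups of 3 or 4 hearts this cannot settle whether the replicate numbers pair the hearts. With the number as a block, Camk2g in IR edit against IR was 0.00067, and of the other named calls Actn2 (0.28, adjusted p = 0.0674), Nox4 (0.95, 0.164) and Rbfox1 (-0.64, 0.0571) in IR edit against Sham were lost. Under the block the calls over all genes came to 159 for IR edit against IR virus, 122 against IR and 590 against Sham, 174 in IR virus against Sham, 5 in IR against Sham, 344 in the injured mean against Sham and 270 over the 4 groups, where the unblocked counts were 317, 223, 1257, 2, 2, 191 and 527.

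Leaving out 1 heart at a time gave these ranges of log2 fold change: Camk2b 0.31 to 0.36 in IR edit against Sham, 0.28 to 0.33 in the injured mean against Sham and -0.11 to 0.053 in IR edit against IR virus; Camk2d -0.022 to 0.096 in IR edit against IR virus and -0.21 to 0.023 in IR against Sham. Camk2g ran from -0.081 to 0.021 in IR edit against IR, -0.013 to 0.082 in IR virus against Sham, -0.080 to 0.0066 in IR against Sham and -0.059 to 0.019 in the injured mean against Sham. Camk2a ran from -0.0039 to 0.10 in IR edit against Sham, and Camk2n1 from -0.029 to 0.068 in IR virus against IR. The log2 ratio to Camk2d ran from -0.21 to 0.075 for Camk2b in IR edit against IR virus, and from -0.079 to 0.13 for Camk2g in IR against Sham. For Camk2a it ran from -0.20 to 0.085 in IR against Sham, -0.016 to 0.27 in IR virus against Sham and -0.030 to 0.25 in the injured hearts against Sham. Shares, in percentage points, ran from -0.86 to 1.53 (Camk2a, injured against Sham), -1.53 to 0.87 (Camk2a, IR virus against Sham), -2.30 to 0.10 (Camk2a, IR against Sham), -0.62 to 0.31 (Camk2b, IR edit against IR virus), -0.066 to 1.62 (Camk2d, IR edit against IR virus), -2.26 to 1.76 (Camk2d, IR against Sham), -0.72 to 0.57 (Camk2g, IR edit against Sham) and -0.21 to 1.08 (Camk2g, IR against Sham).

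The shares depend on the length used. With the longest transcript, coding length and raw reads, in that order, Camk2d held 60.2, 66.7 and 66.5%, Camk2g 20.9, 14.7 and 15.5%, and Camk2a 14.3, 15.6 and 14.2%. Camk2b held 3.06% by coding length and 3.81% by reads. In the same order of lengths, the difference in Camk2g's share turned to 0.249, 0.231 and 0.258 points in IR edit against IR and to 0.386, 0.369 and 0.373 in IR edit against Sham. That of Camk2a turned to 0.18, 0.319 and 0.261 in the injured hearts against Sham, and to 0.160 by coding length and 0.0949 by reads in IR virus against Sham.

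Calls over all genes depended on the setting too. With single hearts left out they ran from 96 to 477 for IR edit against IR virus, 59 to 489 for IR edit against IR, 478 to 2351 for IR edit against Sham, 0 to 1 for IR virus against IR, 0 to 130 and 0 to 22 for IR virus and IR against Sham, 1 to 1138 for the injured mean and 197 to 1331 over the 4 groups. Without a filter there were 1018 calls for IR edit against IR virus and 1021 against IR, 37 for IR virus against IR, 2205, 863 and 598 for IR edit, IR virus and IR against Sham, 1474 for the injured mean against Sham and 2292 over the 4 groups. Without IR edit hearts 2 and 4 there were 90 for IR edit against IR virus, 78 against IR and 158 against Sham, but 257 in IR virus against Sham and 144 in IR against Sham. DESeq2's Wald test called 517 genes in IR edit against IR virus, 443 against IR and 713 in the injured mean against Sham. In a fit of only the groups compared there were 246 in IR edit against Sham, 203 in IR virus against Sham and 115 in IR against Sham, and in the injured mean against Sham 102 with a filter of 1 CPM in 3 libraries and 69 with a robust dispersion. The 2 genes called in IR virus and in IR against Sham became 202 and 57 in DESeq2's Wald test and 1 each with a robust dispersion. Differences under the spread of 3 or 4 hearts are not detectable here, whatever the depth.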
